A study of Mus musculus with 2 samples.

Results

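Guanylate-binding proteins (GBPs) and immunity-related GTPases (IRGs) are large GTPases that cells make in response to interferons. The 9 genes described here are the GBPs *Gbp2*, *Gbp3*, *Gbp4*, *Gbp5* and *Gbp7* and the IRGs *Igtp*, *Irgm1*, *Irgm2* and *Iigp1*. They were taken by name from the 31053 genes in the matrices, with earlier results of these data known, and all 9 were detected in both libraries. Each gene was followed as CPM, the number of its UMIs (each a captured mRNA molecule) per 1000000 UMIs of all genes, in each type of cell with at least 50 cells in both libraries. In 3′ data a UMI count does not scale with transcript length. Levels of different genes were set side by side on that basis, with no correction for other differences in how genes are captured.

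The study sorted live CD45.2+ tumor-infiltrating immune cells (TIIs) from subcutaneous B16-OVA tumors, a mouse melanoma line that carries ovalbumin as a model antigen, and profiled them by droplet single-cell RNA sequencing (scRNA-seq) with a 3′ kit. The control library came from C57BL/6J mice given PBS, and the creatine library from mice of the same strain injected intraperitoneally with 10.5 mg creatine, per animal and day in the methods. The methods give male mice aged 8 to 12 weeks. In each group 4 tumors, harvested on day 14 per the labels, were combined into 1 library, so no value below has a replicate and no test between groups was possible. Intervals are exact 95% intervals that cover counting error only. The treatment field and the title put the control library in its group. A protocol entry shared by both samples names the creatine injection, and another passage of the methods names another day of harvest. A figure legend of the study gives mice, in another number, as what was combined.

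After cells with over 25% mitochondrial UMIs were left out, the control library held 7241 cells with a median of 7688 UMIs, and the creatine library 6229 cells with a median of 8475 UMIs. Cells were assigned to types by UMIs of a few marker genes each, at thresholds set after the marker counts had been seen, which placed 73.2% of control and 80.3% of creatine cells. A type gated this way is a range of marker counts, not a cluster. The marker genes themselves lead their gates by construction. Among the 10 leading genes that no gate used were *Pdcd1* and *Gzmk* in CD8 T cells, *Ctla4* and *Ikzf2* in regulatory T cells, *Ccl7* and *Arg1* in macrophages, *Hp* and *F13a1* in classical monocytes, *Ear2* and *Nr4a1* in nonclassical monocytes, *Wdfy4* and *Tlr3* in type 1 conventional dendritic cells (cDC1) and *Calca* in conventional CD4 T cells. The libraries shared 29 barcodes after the filter.

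In mice, GBPs and IRGs guard the cytosol. GBPs assemble on the membranes of pathogen vacuoles and bacteria and promote rupture and inflammasome signaling, while the effector IRGs load onto vacuole membranes and the regulatory IRGs, named for a GMS motif in their GTPase domain, sit on the cell's own membranes and hold the effectors inactive there. Their transcription is driven mainly by interferon-gamma, through the STAT and IRF1 factors that bind GAS and ISRE elements, and in part by type I interferon.

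The genes lie in clusters. In the GRCm38 annotation *Gbp5*, *Gbp7*, *Gbp3* and *Gbp2* fall, in that order and with the non-member *Gbp2b*, between positions 142493978 and 142638008 of chromosome 3. *Gbp4* lies on chromosome 5 among *Gbp8*, *Gbp9*, *Gbp10* and *Gbp6*. *Igtp* and *Irgm2* are neighbors on chromosome 11, where *Irgm1* lies in a separate group with *Tgtp1*, *Tgtp2* and *Ifi47*. The annotated *Irgm2* gene overlaps *Igtp* on the same strand, and *Gbp4* overlaps *Gbp8* and *Gbp9*. Of the 50-base windows in the last 500 bases of each gene's transcripts, 14.2% occurred also in another gene for *Gbp4* and at most 3.55% for the other 8, so *Gbp4* is the member whose count could most depend on how shared reads were assigned.

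RefSeq promoter windows, 250 bases before to 50 bases after an annotated start in GRCm38.p6, were at hand for 7 members (not *Gbp4* or *Iigp1*). The ISRE core was searched as GAAA, any 2 bases and GAAA again, and the GAS core as TTC, any 3 bases and GAA, on both strands. An ISRE core was present in a window of 7 of 7 members, against 3.44% of the 32851 windows of the same length that were searched. A GAS core was present for *Gbp5*, *Gbp7*, *Igtp* and *Irgm2*, 4 of 7, against 8.3% of windows. Both cores stood together in 0.454% of windows and in those of the same 4 members. The 170 bases before the start are printed 5′ to 3′ on the gene's strand for 5 members, with ISRE and GAS cores in capitals, because they show the elements shared by the family and the arrangement found in the IRG pair.
Igtp, chr11:58199386-58199555, plus strand: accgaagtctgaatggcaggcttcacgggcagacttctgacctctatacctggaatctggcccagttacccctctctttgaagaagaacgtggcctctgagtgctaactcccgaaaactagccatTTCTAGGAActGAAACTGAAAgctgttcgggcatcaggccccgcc
Irgm2, chr11:58214807-58214976, plus strand: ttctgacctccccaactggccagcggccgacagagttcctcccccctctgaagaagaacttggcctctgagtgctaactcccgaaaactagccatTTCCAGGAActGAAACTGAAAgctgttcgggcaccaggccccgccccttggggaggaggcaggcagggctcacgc
Gbp7, chr3:142530166-142530335, plus strand: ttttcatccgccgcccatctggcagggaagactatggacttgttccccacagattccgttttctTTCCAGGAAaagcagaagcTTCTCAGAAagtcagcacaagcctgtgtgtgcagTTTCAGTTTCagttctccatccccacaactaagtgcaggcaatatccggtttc
Gbp5, chr3:142496764-142496933, plus strand: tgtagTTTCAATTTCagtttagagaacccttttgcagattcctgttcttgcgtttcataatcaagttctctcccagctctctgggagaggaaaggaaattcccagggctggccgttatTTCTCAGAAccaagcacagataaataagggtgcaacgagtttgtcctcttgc
Gbp2, chr3:142620493-142620662, plus strand: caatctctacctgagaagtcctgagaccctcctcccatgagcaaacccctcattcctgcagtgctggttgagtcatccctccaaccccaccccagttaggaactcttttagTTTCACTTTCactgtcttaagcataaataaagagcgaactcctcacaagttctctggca
In *Igtp* and *Irgm2* the GAS core ends 2 bases before an ISRE core, at 34 bases from the start in *Igtp* and 64 in *Irgm2*. That arrangement of a GAS core, 2 bases and an ISRE core, on either strand, occurred in 5 of the 32851 windows, or 0.0152%, and the others were those of *Tgtp1*, *Tgtp2* and *Gm12185*. In *Gbp2*, *Gbp5* and *Gbp7* the ISRE core reads on the opposite strand, at 59, 165 and 53 bases from the start. A match in letters is a description and not a bound site.

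Across all cells kept, the family was higher in the creatine library. The 9 genes together went from 782 to 1190 CPM, a log2 ratio of 0.61 (0.59 to 0.62). Each of the 9 was higher, against 52% of genes, each with an interval above 0, against 27.8%, and 6 of 9 were at least 1.5-fold higher, against 6.57% of the 14855 genes with at least 20 UMIs. Their median log2 ratio was 0.62, and that of all genes was 0.01. The shares of all genes were not matched for level, and a counting interval is narrower where a gene has more UMIs. *Gbp5*, which promotes inflammasome assembly, had the largest ratio and went from 36.9 to 66.6 CPM (0.85, 0.79 to 0.92). *Gbp7*, the most abundant member in the control library, had the smallest and went from 163 to 204 CPM (0.32, 0.28 to 0.35).

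The same held within types. Over 10 types, 88 of the 90 values (9 genes in each type) were higher in the creatine library and 57 were at least 1.5-fold higher, against 52.9% and 9.47% of the 91875 values of all genes in these types. No member was 1.5-fold lower across all cells, against 8.03% of genes, or in any type, against 6.59% in CD8 T cells, 9.84% in conventional CD4 T cells, 7.44% in regulatory T cells, 8.62% in gamma-delta T cells, 6.36% in NK cells, 6.47% in macrophages, 11% in classical monocytes, 9.71% in nonclassical monocytes, 13.2% in cDC1 and 11.8% in type 2 conventional dendritic cells (cDC2). In 73 of the 90 the counting interval lay above 0, against 13.8% of the values of all genes, and in none below. The 13.8% too was not matched for level. The 2 lower values were those of *Igtp* and *Gbp4* in conventional CD4 T cells, both with intervals that held 0, and both turned positive under an alternative, *Gbp4* to 0.13 without dividing cells and *Igtp* to 0.03 under the stricter gate. All 90 values had passed the minimum of 20 UMIs, so none was left out. The median over the 9 genes was above 0 in 10 of 10 types and at least 1.5-fold in 7. In the cells no gate took, the summed family went from 948 to 1412 CPM (0.55 to 0.60 on the log2 scale).

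**Figure D1:**
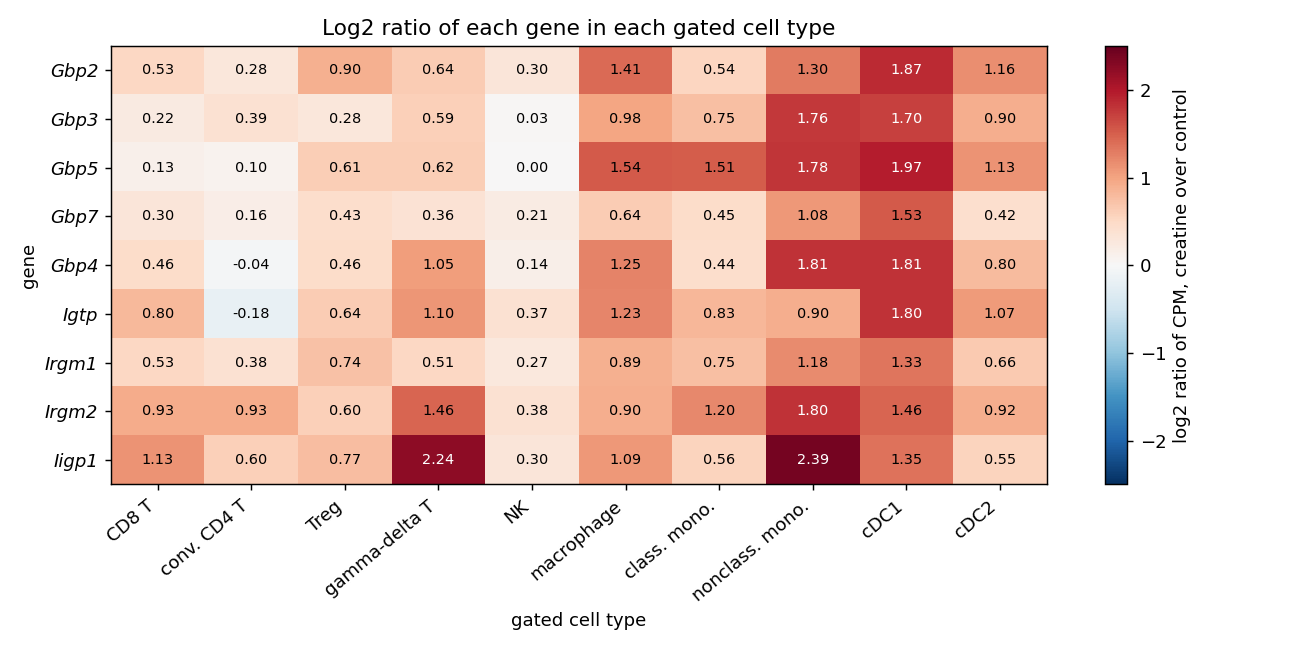
Log2 ratio of CPM (creatine over control, color and number in each cell) for the 9 genes (rows) in the 10 gated types (columns), 1 library per group. The highest values are those of *Iigp1* in nonclassical monocytes (2.39) and gamma-delta T cells (2.24), the lowest those of *Igtp* (-0.18) and *Gbp4* (-0.04) in conventional CD4 T cells, and the NK column runs from 0.00 to 0.38.

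In the full gates, nonclassical monocytes and cDC1 had the largest family ratios. In nonclassical monocytes, the patrolling monocytes of blood vessels, 9 of 9 members were at least 1.5-fold higher, against 11.2% of 8356 genes, with a median log2 ratio of 1.76. *Iigp1*, an effector IRG, was close to the limit of detection in the control gate, with 7 UMIs or 8.84 CPM (3.55 to 18.2), and stood at 46.3 CPM (38.3 to 55.5) in the creatine gate. *Gbp4* went from 20.2 to 70.8 CPM (1.81, 1.07 to 2.65). *Gbp2*, the most abundant member there, went from 196 to 483 CPM (1.30, 1.06 to 1.55).

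In cDC1, the dendritic cells that specialize in cross-presenting antigen to CD8 T cells, 9 of 9 members were at least 1.5-fold higher, against 16.4% of 7972 genes, and the median was 1.70. *Gbp5* differed most, from 34.5 to 135 CPM (1.97, 1.48 to 2.48). *Gbp2* went from 213 to 782 CPM (1.87, 1.68 to 2.07), and *Irgm1*, the regulatory IRG that differed least, went from 89.9 to 227 CPM (1.33, 1.01 to 1.66). The cDC1 gates of the libraries were unlike in other ways. Cells with UMIs of at least 2 of 8 dividing cell genes were 51.9% of the gate (81 cells) without and 14.5% (69 cells) with creatine, and 8 of 8 of these genes were at least 1.5-fold lower with creatine (median -2.43). The summed level of the 5 monocyte marker genes went from 1233 to 3656 CPM, with none at 0 in either library. The 4 cDC1 markers went from 2319 to 1917 CPM and the 3 myeloid lineage genes from 20463 to 13714 CPM. The 3 nonclassical monocyte genes went from 5.24 to 55.7 CPM, with 1 of them at 0 in the control library. Without the dividing cells, 39 control and 59 creatine cells remained, 9 of 9 members were still at least 1.5-fold higher, and the median was 1.27. The 16.4% is for the full gates, and no share of all genes was computed for these fewer cells. In them the log2 ratio of the summed family was 1.11 (0.96 to 1.26), against 1.67 (1.55 to 1.78) in the full gates. Macrophages without dividing cells were at 1.13 (1.08 to 1.18), so by the sum cDC1 did not stand above them. By the median cDC1 did, at 1.27 against 1.08. The part of these marker differences in the result was not tested.

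In cDC2 the difference was smaller. There 7 of 9 members were at least 1.5-fold higher, against 14.1% of 8396 genes, with a median of 0.90. *Gbp2* went from 223 to 496 CPM (1.16, 0.97 to 1.34). *Gbp7* went from 146 to 195 CPM (0.42, 0.17 to 0.68) and *Iigp1* from 145 to 212 CPM (0.55, 0.30 to 0.80), both short of 1.5-fold. Dividing cell and monocyte genes moved as in cDC1: the dividing cell genes had a median of -1.90, and the monocyte genes went from 2061 to 4605 CPM with none at 0. The 4 cDC2 markers went from 1377 to 1171 CPM, and the 3 myeloid lineage genes rose here, from 9085 to 15410 CPM. Without dividing cells the family median was 0.74, and 8 of 9 members were at least 1.5-fold higher, with no share of all genes computed for these cells.

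In macrophages 9 of 9 members were at least 1.5-fold higher, against 4.4% of 10852 genes, the lowest background of the 10 types. The median was 1.09. *Gbp2* went from 325 to 863 CPM (1.41, 1.34 to 1.47) and *Gbp5* from 48.2 to 140 CPM (1.54, 1.37 to 1.71). *Iigp1* went from 268 to 568 CPM (1.09, 1.01 to 1.16), the highest level of this gene among the types in both libraries. *Igtp*, a regulatory IRG also known as Irgm3, went from 66.2 to 155 CPM (1.23, 1.08 to 1.38). The macrophage gate was smaller with creatine, 241 cells against 622, and its cells were deeper, with a median of 19412 UMIs against 14094.5. The 6 macrophage marker genes summed to 11283 and 12315 CPM, and without dividing cells the family median was 1.08.

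In classical monocytes 5 of 9 members were at least 1.5-fold higher, against 9.83% of 9708 genes, with a median of 0.75. The gates differed in their markers too. The 3 myeloid lineage genes summed to 15809 and 25089 CPM, the 5 monocyte genes to 6320 and 9168, the 6 macrophage genes to 456 and 238 and the 3 nonclassical monocyte genes to 27.7 and 54.9 CPM, with none at 0 in either library, and their part in the result was not tested. *Gbp5* had the largest ratio, with 67.3 and 192 CPM (1.51, 1.29 to 1.74). *Irgm2* came next, with 32.5 and 74.9 CPM (1.20, 0.88 to 1.54), and their intervals overlapped. *Gbp2*, at 655 and 952 CPM, was higher in this type than in any of the other types in both libraries and changed less (0.54, 0.46 to 0.62). Dividing cell genes were lower here too, with a median of -0.82 over the 7 that passed 20 UMIs, but cells with at least 2 of them were 5.74% and 2.1% of the gates, and leaving them out gave a median of 0.72. *Iigp1*, at 128 and 188 CPM (0.56, 0.39 to 0.74), turned to -0.51 under a stricter gate that kept 102 and 152 cells.

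**Figure D2:**
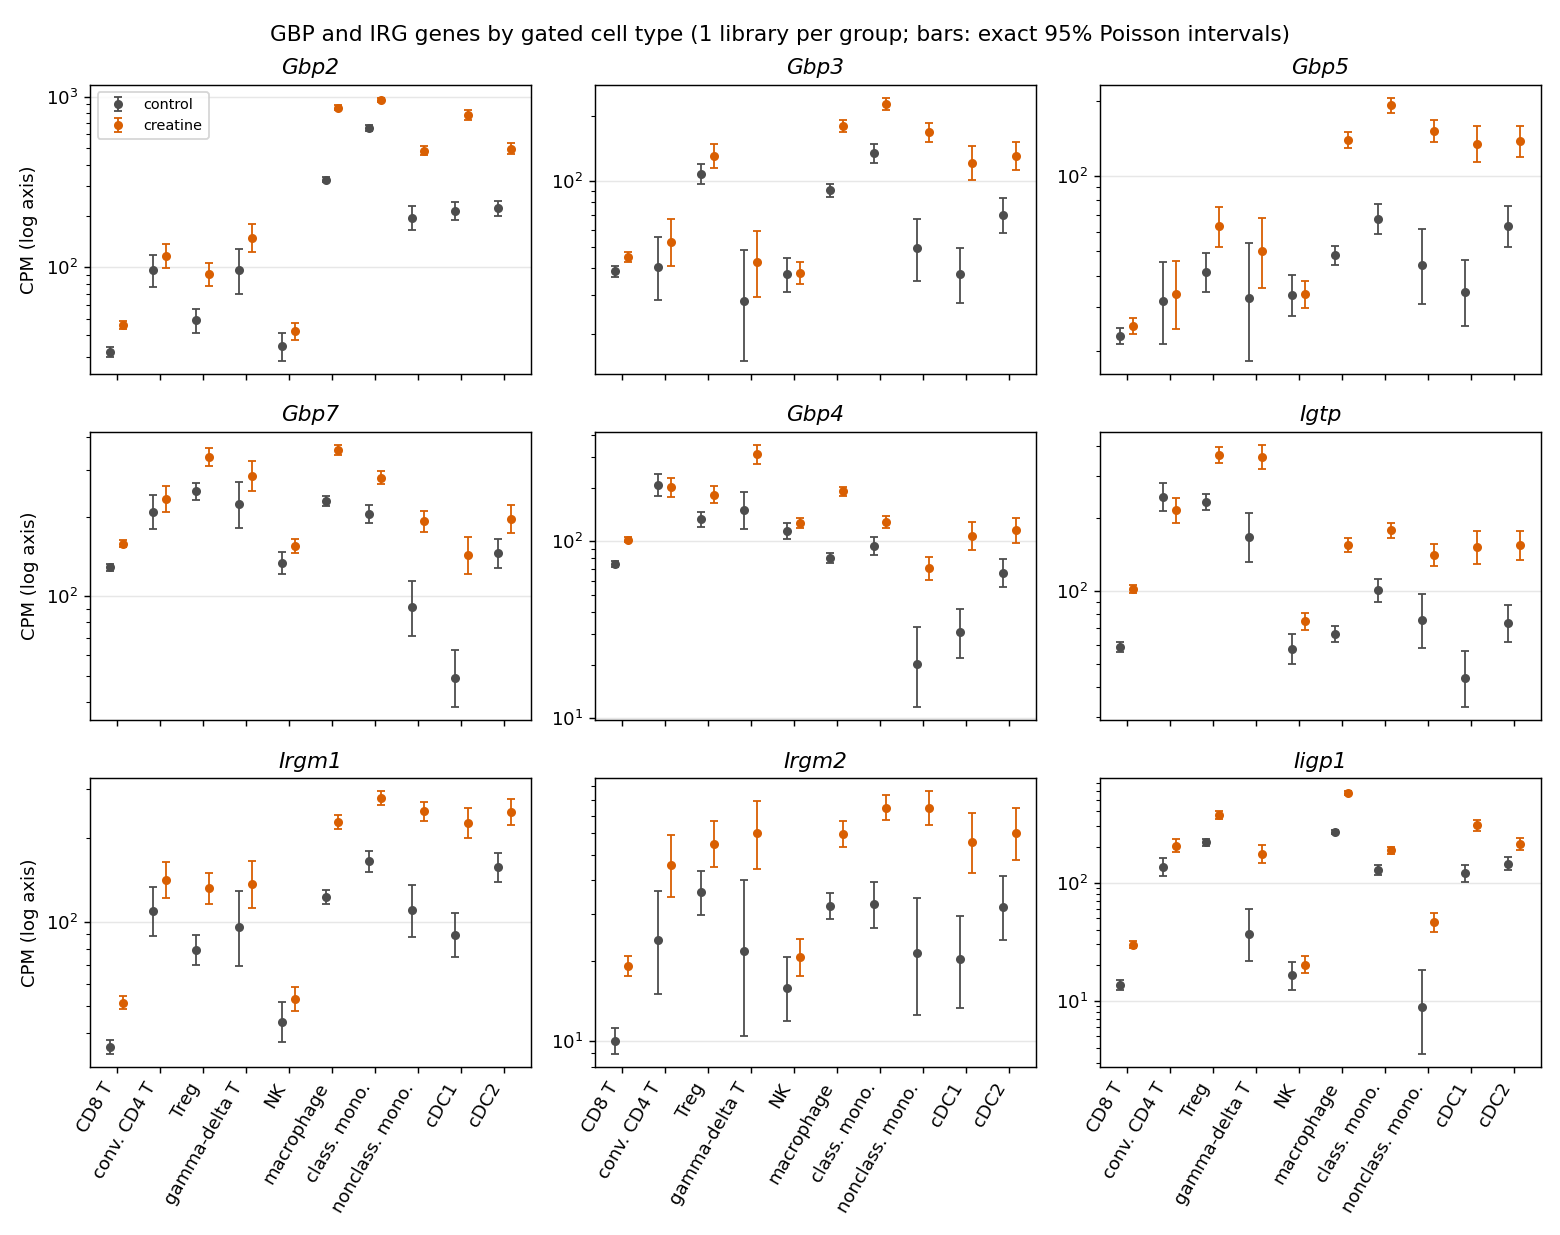
CPM (log axis) of each gene by gated cell type in the control (gray) and creatine (orange) library, with exact 95% Poisson intervals for counting error. In macrophages, both kinds of monocytes, cDC1 and cDC2 the intervals of the libraries are apart for 9 of 9 genes, while in NK cells most overlap. The share of all genes with CPM intervals apart was not computed. Over the 10 types, 13.8% of the values of all genes, not matched for level, had a log2 ratio interval above 0.

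Among lymphocytes the pattern was uneven. In CD8 T cells 9 of 9 members were higher, against 56.9% of 12537 genes, and 3 at least 1.5-fold higher, against 5.47%, and the median was 0.53. The 3 were IRGs: *Iigp1* went from 13.6 to 29.8 CPM (1.13, 0.96 to 1.30), *Irgm2* from 10.0 to 19.1 CPM (0.93, 0.73 to 1.14), and *Igtp* from 58.4 to 102 CPM (0.80, 0.72 to 0.89). *Gbp5* was at 23.0 and 25.1 CPM, with an interval that held 0 (0.13, -0.02 to 0.28). Cells with at least 2 dividing cell genes were 53.9% and 50.7% of these gates. Without them the family median was 0.81 and 6 of 9 members were at least 1.5-fold higher, with no share of all genes computed for these cells.

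In the full CD8 T cell gates the difference was thus larger for the IRG members. Summed, the 4 IRGs went from 118 to 202 CPM (0.78, 0.72 to 0.84) and the 5 GBPs from 296 to 376 CPM (0.34, 0.30 to 0.38). The ratio of the IRG sum was also the larger in regulatory T cells (0.70 against 0.47) and in gamma-delta T cells (1.18 against 0.66). The order was the opposite in macrophages, with 1.05 for the IRGs and 1.16 for the GBPs, and in cDC1, with 1.43 and 1.82. In these 5 types the counting intervals of both sums were apart, and in the other 5 they overlapped. Neither sum was computed without dividing cells. The log2 ratio of all 9 genes summed was then 0.67 in CD8 T cells and 0.20 in regulatory T cells, against 0.48 and 0.59 in the full gates.

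In regulatory T cells 6 of 9 members were at least 1.5-fold higher, against 9.84% of 9474 genes, with a median of 0.61. *Igtp* went from 234 to 364 CPM (0.64, 0.49 to 0.79) and *Iigp1* from 218 to 373 CPM (0.77, 0.62 to 0.93), and both were more abundant here than in CD8 T cells. Dividing cells were 39.8% of the control and 29.5% of the creatine gate. Without them the median was 0.37, 0 of 9 members reached 1.5-fold, and *Gbp4* and *Gbp7* were slightly lower with creatine (-0.06 and -0.02). No share of all genes was computed for the remaining cells.

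In gamma-delta T cells 7 of 9 members were at least 1.5-fold higher, against 16.2% of 6268 genes, with a median of 0.64. The gates were small, at 83 and 137 cells, and differed in their markers. The 3 gamma-delta marker genes summed to 1219 and 2457 CPM and the 6 NK markers to 455 and 313 CPM, with none at 0. Cells with at least 2 dividing cell genes were 10.8% and 5.11% of the gates, and leaving them out gave a family median of 0.80. The part of these differences in the result was not tested. *Iigp1* went from 37.0 CPM (21.6 to 59.3) to 175 CPM (147 to 207), a log2 ratio of 2.24 (1.51 to 3.06). *Gbp4* went from 150 to 310 CPM (1.05, 0.66 to 1.45) and *Igtp* from 168 to 359 CPM (1.10, 0.73 to 1.48). For *Gbp3*, *Gbp5* and *Irgm1* the intervals held 0.

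Conventional CD4 T cells and NK cells changed least. In conventional CD4 T cells 2 of 9 members were at least 1.5-fold higher, *Irgm2* (24.0 to 45.7 CPM) and *Iigp1* (135 to 205 CPM), against 8.85% of 7919 genes, and the median was 0.28. *Igtp* was at 246 CPM (215 to 280) and 217 CPM (192 to 244), a log2 ratio of -0.18 (-0.44 to 0.08). *Gbp4* was at 209 and 202 CPM (-0.04, -0.32 to 0.23). These cells already held the highest control level of both genes among the 10 types, although for each the next type's interval overlapped.

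In NK cells 9 of 9 members were higher, against 53.4% of 10393 genes, and 0 of 9 by 1.5-fold, against 4.9%, and the median was 0.27. *Gbp7* (134 to 155 CPM) and *Igtp* (57.7 to 74.8 CPM) were the 2 whose intervals lay above 0. *Gbp5*, at 33.5 and 33.6 CPM, had a log2 ratio of 0.00 (-0.32 to 0.34). *Gbp3* and *Gbp5* were at -0.05 and -0.07 where mitochondrial and ribosomal genes were left out of the total.

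The order of the types differed between the libraries. In the control library the summed family was highest in classical monocytes at 1581 CPM, followed by macrophages at 1262, regulatory T cells at 1148, conventional CD4 T cells at 1099, cDC2 at 975, gamma-delta T cells at 851, cDC1 at 639, nonclassical monocytes at 616, NK cells at 487 and CD8 T cells at 414 CPM. Neighbors in this order overlapped in 3 places, between regulatory and conventional CD4 T cells, cDC2 and gamma-delta T cells, and cDC1 and nonclassical monocytes. In the creatine library macrophages led at 2741 CPM, ahead of classical monocytes at 2498, cDC1 at 2028, cDC2 at 1751, regulatory T cells at 1729, nonclassical monocytes at 1576, gamma-delta T cells at 1567, conventional CD4 T cells at 1248, CD8 T cells at 578 and NK cells at 564 CPM. There the overlaps were between cDC2 and regulatory T cells, nonclassical monocytes and gamma-delta T cells, and CD8 T and NK cells. Some of these places changed without dividing cells. Then control regulatory T cells stood at 1739 CPM, above classical monocytes at 1628, and control cDC1 at 1014 CPM, level with cDC2 at 1013, while creatine macrophages and classical monocytes still led, at 2719 and 2509, ahead of cDC1 at 2187 CPM.

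The mix of members differed among the types. In the control library *Gbp7* held 31.1% of the family's UMIs in CD8 T cells, 27.4% in NK cells and 26.1% in gamma-delta T cells, and *Gbp4* a further 18%, 23.5% and 17.6%. In myeloid cells *Gbp2* led instead, with 41.4% in classical monocytes, 33.4% in cDC1 and 25.8% in macrophages, against 7.69% in CD8 T cells. *Iigp1* was split within both lineages: it held 21.2% in macrophages but 1.43% in nonclassical monocytes, and 19% in regulatory T cells but 3.29% in CD8 T cells. *Irgm2* was the rarest member in CD8 T cells and macrophages, at 2.42% and 2.54%. In conventional CD4 T cells *Igtp* led in the control library, with 22.3%, and *Gbp7* in the creatine library, with 18.7%. In gamma-delta T cells *Gbp7* went from 26.1% to 18.2% and *Iigp1* from 4.35% to 11.2%. There *Igtp* had the largest share in the creatine library, 22.9% (20.6 to 25.3), overlapping that of *Gbp4*, 19.8% (17.6 to 22.1). In macrophages *Gbp7* held 18.1% of the family without and 13% with creatine, and *Gbp2* 25.8% and 31.5%.

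**Figure D3:**
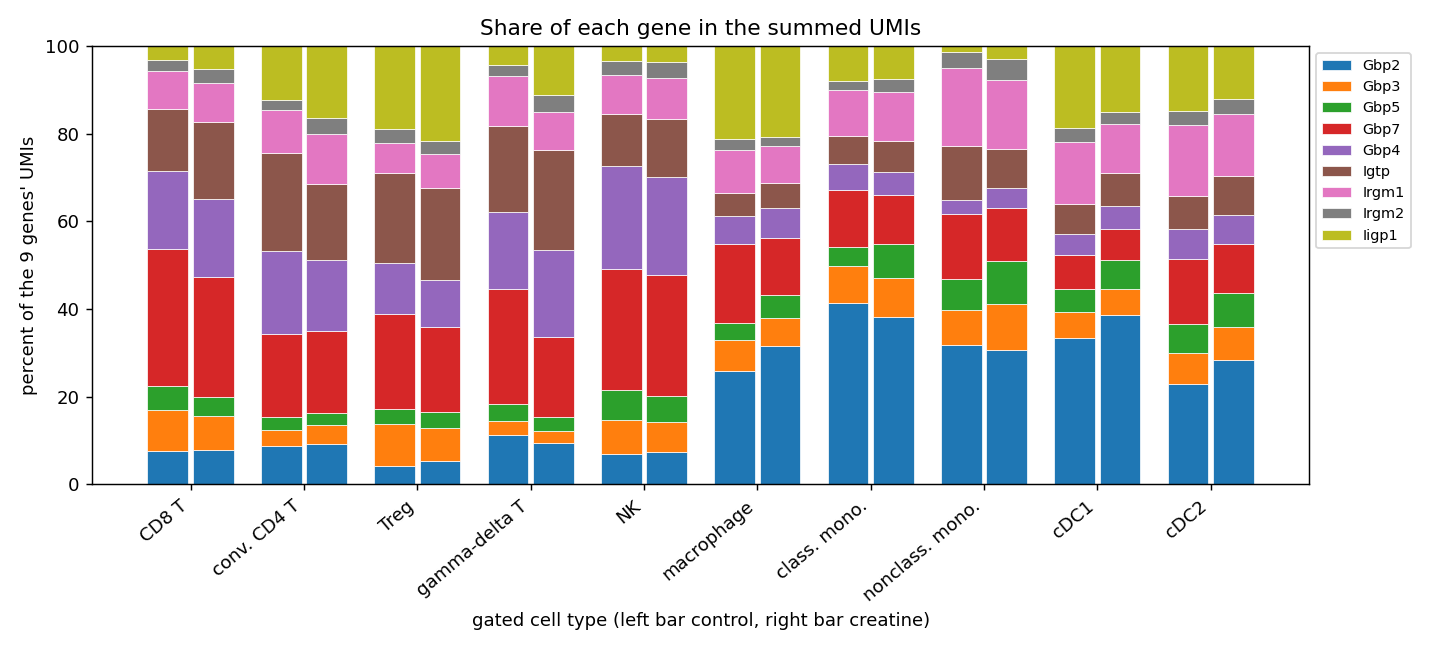
Percent of the summed UMIs of the 9 genes held by each gene, by gated cell type, with the control library in the left and the creatine library in the right bar of each pair. *Gbp7* and *Gbp4* fill the largest part of the CD8 T and NK cell bars, and *Gbp2* that of the monocyte and dendritic cell bars.

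Seen cell by cell, macrophages differed over the whole distribution. The median macrophage had 826 CPM of the family in the control and 2372 CPM in the creatine library, and the 10th percentile went from 154 to 352 CPM. The median cDC1 went from 250 to 1286.5 CPM and the median nonclassical monocyte from 237 to 698 CPM. In classical monocytes the upper end moved more than the middle, with medians of 980 and 1174 CPM and 90th percentiles of 4042 and 6853 CPM. The cDC2 gate behaved likewise, with medians of 505 and 666 CPM and 90th percentiles of 2609 and 5247 CPM. Medians barely differed in conventional CD4 T cells, at 911 and 905 CPM.

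**Figure D4:**
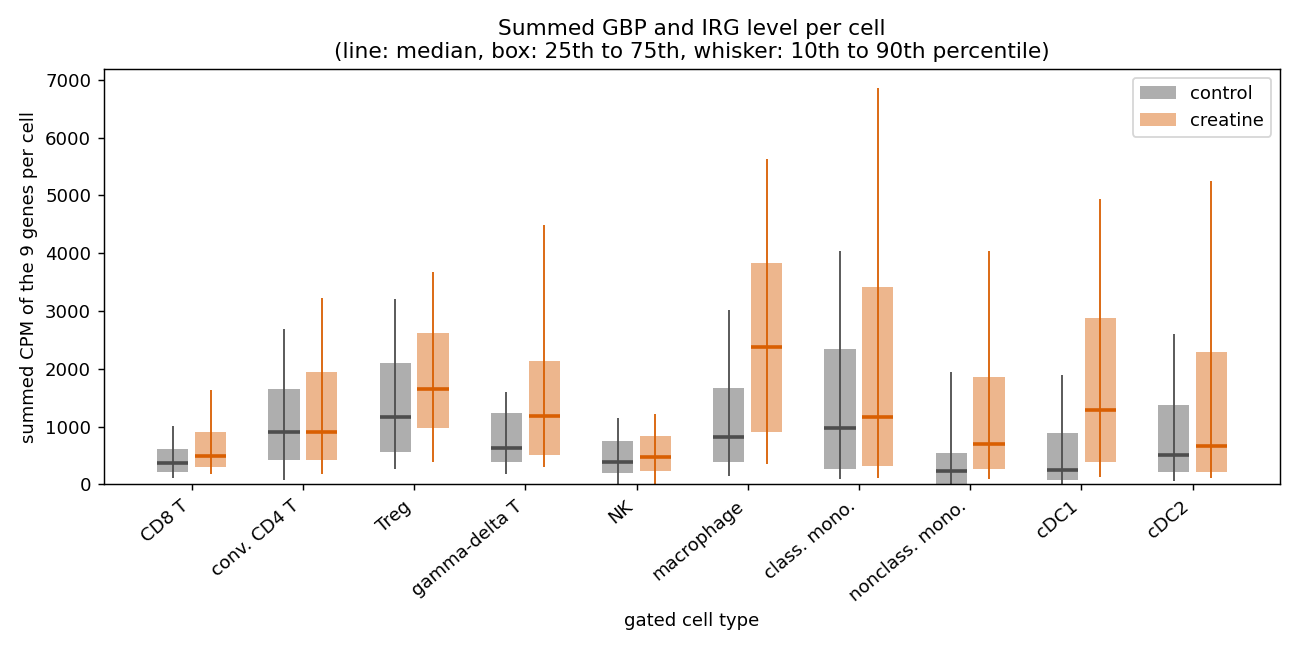
Summed CPM of the 9 genes per cell by gated cell type, with the median (line), the 25th to 75th percentile (box) and the 10th to 90th percentile (whisker) for the control (gray) and creatine (orange) library. The macrophage box moves up as a whole, while in classical monocytes and cDC2 mainly the upper part does.

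With each cell thinned to 2000 UMIs to remove the difference in depth, UMIs of at least 3 members were found in 27.4% (23.9 to 31.1) of control and 56.1% (49.5 to 62.5) of creatine macrophages, which left out 2 cells of each. Unthinned shares were 79.4% and 90%. The thinned share went from 8.87% (4.51 to 15.3) to 25.5% (20.5 to 31.1) in nonclassical monocytes, with 0 and 4 cells left out and median depths of 6474 and 8688.5 UMIs. It went from 16% (8.83 to 25.9) to 36.2% (25 to 48.7) in cDC1, with none left out and medians of 16142 and 13278 UMIs. Unthinned, these were 23.4% and 61.7%, and 51.9% and 78.3%. In NK cells it was 5.84% (4.22 to 7.84) and 8.74% (7.17 to 10.5), with 45 and 30 cells left out, against 23% and 41.7% unthinned. Thinned to 1000 UMIs, the NK shares were 2.3% and 2.31%, while those of macrophages were 13.5% and 30.3%, those of nonclassical monocytes 3.23% and 13.5%, and those of cDC1 6.17% and 21.7%. No type in the gates is known to lack these genes, so the part of free RNA in the shares was not tested.

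The genes that drive or accompany the family were taken as lists chosen for their function, with earlier results of these data known. Of the other GBP and IRG genes, 11 were in the matrices, with a median of 0.54 across all cells. There 5 of the 11 were at least 1.5-fold higher, against 6.57% of all genes, and none lower, against 8.03%. Over the 10 types, 52.9% of the values of all genes were higher and 9.47% at least 1.5-fold higher. *Ifi47*, the IRG Irg47, was higher in 10 of 10 types, from 0.30 in conventional CD4 T cells to 1.42 in nonclassical monocytes, and *Gbp9* likewise, from 0.09 in NK cells to 1.67 in cDC1. Not all were so even. *Gbp2b* was at least 1.5-fold higher in 5 of 7 types and lower by that much in 2, regulatory T cells and cDC2 (-1.06). Of all genes, 7.44% and 11.8% were that much lower there. *Gbp8* was higher in 6 of 10 types, with -0.44 in cDC2. The counts of *Gbp6*, *Gbp10*, *Tgtp1*, *Tgtp2* and *Gvin1* are uncertain, since 73.7% to 100% of their 3′ windows occur in another gene.

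Of 11 interferon-gamma signaling genes, 4 were at least 1.5-fold higher across all cells, against 6.57% of all genes. None was lower, against 8.03%, and the median was 0.29. *Ifng* itself, the ligand, went from 292 to 557 CPM in CD8 T cells (0.93, 0.89 to 0.97), its highest source among the gates, and was at 69.7 and 68.2 CPM in NK cells (-0.03, -0.26 to 0.20). *Irf1*, the factor that binds ISRE elements, was higher in 10 of 10 types, from 0.15 in conventional CD4 T cells to 1.48 in cDC1. *Socs1*, the feedback inhibitor of the receptor's kinases, was also higher in 10 of 10, up to 1.56 in cDC1. The kinase gene *Jak2* was 1.5-fold higher in none of the types. *Ciita* was at least 1.5-fold lower in 3 of 8 types, down to -1.36 in NK cells, and 1.5-fold higher in 1. *Irf8* was lower by that much in conventional CD4 T cells (-1.08), *Ifng* in macrophages (-0.70) and *Ifngr2* in CD8 T cells (-0.62). In order, they were at least 1.5-fold higher in 5, 4 and 3 types. Of all genes, from 6.36% in NK cells to 13.2% in cDC1 were at least 1.5-fold lower within a type. Of their values over the 10 types, 9.47% were at least 1.5-fold higher. In CD8 T cells the list median was 0.14. There 2 genes were at least 1.5-fold higher and 2 lower, against 5.47% and 6.59% of all genes. Of 12 other interferon-gamma-induced genes that passed, 2 were at least 1.5-fold higher across all cells (median 0.17), against 6.57% of all genes. In macrophages 7 of 12 were, against 4.4%. Among them were the chemokine genes *Cxcl9* (832 to 1485 CPM) and *Cxcl10* (285 to 851 CPM), while the immunoproteasome gene *Psmb8* was at 704 and 934 CPM (0.41).

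The median of the type I interferon-stimulated genes was above the family's in T cells and cDC1. It was 1.19 in gamma-delta T cells (family 0.64), 1.08 in regulatory T cells (0.61), 1.02 in conventional CD4 T cells (0.28), 0.70 in CD8 T cells (0.53) and 1.94 in cDC1 (1.70). It was below the family's in macrophages, at 0.45 (1.09), in classical monocytes, at 0.06 (0.75), and in nonclassical monocytes, at 1.35 (1.76). In cDC2, at 0.90 (0.90), and NK cells, at 0.29 (0.27), they were close. These differences between lists were not tested. *Isg15*, a ubiquitin-like modifier, was higher in 10 of 10 types, by 0.22 in classical monocytes and 2.37 in nonclassical monocytes.

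GBPs act with inflammasome caspases. *Casp1* was at least 1.5-fold higher in 10 of 10 types, from 0.82 in conventional CD4 T cells to 2.61 in nonclassical monocytes, and *Casp4*, the mouse caspase that senses cytosolic lipopolysaccharide, in 9 of 10, up to 3.03 in cDC1. Of the values of all genes in these types, 9.47% were at least 1.5-fold higher. In NK cells, where no member reached 1.5-fold, *Casp1* went from 20.05 to 50.9 CPM (1.34). The adaptor gene *Pycard* was 1.5-fold higher in 1 type and the pore gene *Gsdmd* in 2. Of 10 autophagy genes, some of whose products help place effector IRGs and GBPs on vacuoles, none was 1.5-fold changed across all cells or in macrophages, with medians of -0.01 and -0.03. Of all genes, 6.57% were at least 1.5-fold higher and 8.03% lower across all cells, and 4.4% and 6.47% in macrophages. Of 10 genes that respond to tissue dissociation, 2 were at least 1.5-fold higher and 3 lower across all cells, with a median of 0.03 and medians from -0.12 in macrophages to 0.80 in gamma-delta T cells. These genes did not move together. The heat shock gene *Hspa1a* was at 29.0 and 10.3 CPM across all cells and 1.5-fold lower in 7 of the 8 types where it passed, and *Hspa1b* in 7 of 7. The share of all genes that much lower ran from 6.36% in NK cells to 13.2% in cDC1. *Egr1* was higher in 10 of 10 types, up to 3.04 in cDC2, and *Junb* in 9 of 10. In gamma-delta T cells 5 of 7 were at least 1.5-fold higher and 0 lower, against 16.2% and 8.62% of all genes. In cDC2 5 of 10 were higher and 2 lower, against 14.1% and 11.8%. The part of these genes in the family's result was not tested.

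**Figure D5:**
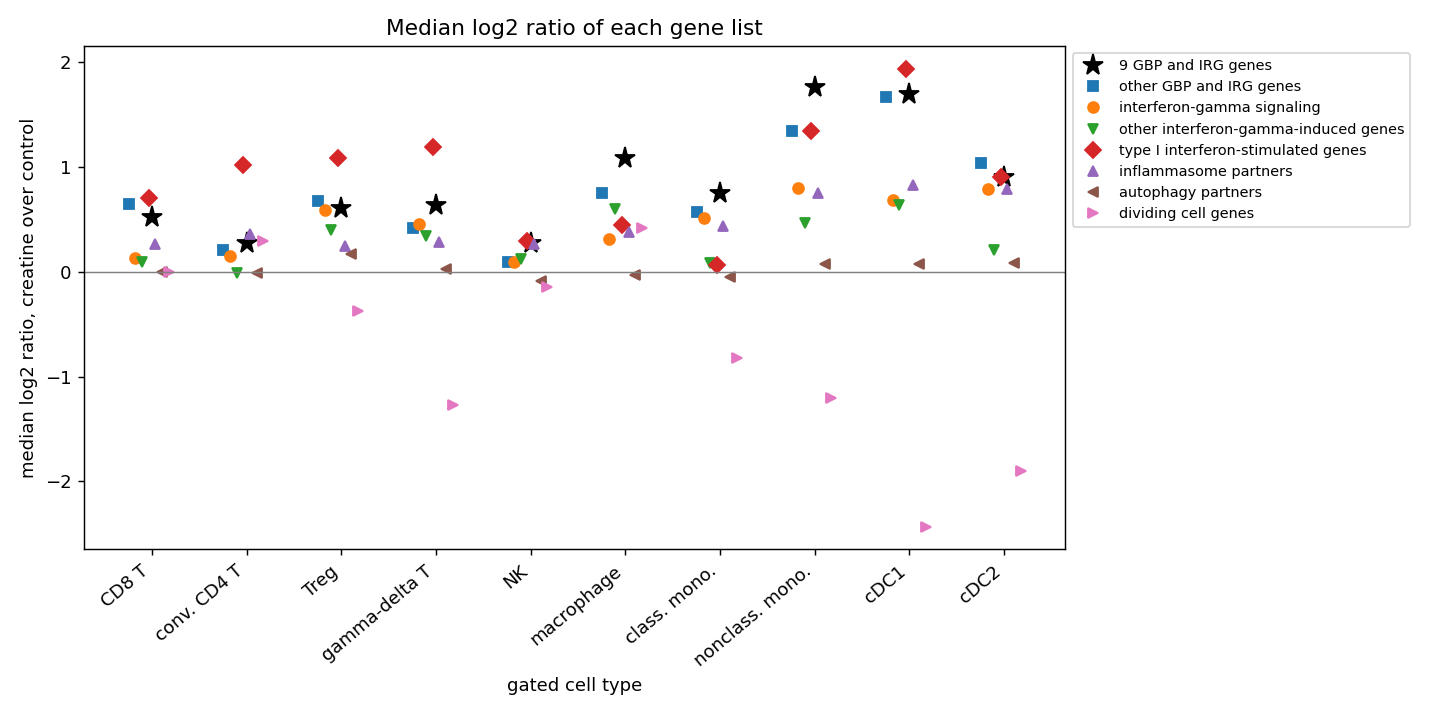
Median log2 ratio (creatine over control) of the 9 GBP and IRG genes (stars) and of 7 gene lists (symbols) by gated cell type, over the genes of each list with at least 20 UMIs. The stars stand above the type I interferon symbols in macrophages and both kinds of monocytes, below them in T cells and cDC1 and close to them in cDC2 and NK cells, and the dividing cell genes are below 0 in 8 of the 10 types.

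The genes most like the family in level were sought over the 20 sums of 10 types in 2 libraries, as Pearson correlation of log2(CPM + 1) with the summed members, among 10269 genes with at least 500 UMIs, the members and their paralogs apart. The closest was *Zbp1* (r = 0.93), a sensor of Z-form nucleic acid, followed by *Tapbp* (0.90), *H2-T23* (0.90), *Mthfsl* (0.89), *Ifit1* (0.89), *Isg15* (0.88), *Rtp4* (0.87), *Dtx3l* (0.86), *Irf1* (0.84) and *Parp14* (0.84). These 20 sums share 2 libraries and the gates, so the values are descriptions. The members did not all follow the sum, although it holds them. Their own r ran from 0.45 for *Gbp4* and 0.64 for *Igtp* to 0.90 for *Irgm1* and 0.93 for *Irgm2*. Across all cells *Zbp1* was 0.67 higher and *Tapbp* 0.18 higher on the log2 scale.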

How the data were processed

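TIIs were profiled in 2 libraries, 1 per group, with a 3′ v2 kit. The authors deposited for each library a Cell Ranger matrix of raw UMI counts per gene and cell, not normalized. The submitters' processing notes name Cell Ranger 3.0.2 and mm10. The gene and barcode lists hold no measurement. The aggregated and Seurat-processed matrix of the study was not used here.

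Cells with at most 25% mitochondrial UMIs were kept (7241 of 7649 control and 6229 of 6503 creatine cells, 79319769 and 72091124 UMIs). All kept cells had at least 300 UMIs and 100 genes. The mitochondrial filter was the one that removed cells. Cells were gated into 15 types by summed UMIs of markers (a CD8 T cell held at least 3 *Cd3* and 2 *Cd8* UMIs and none of *Cd4* or *Foxp3*, a macrophage at least 20 UMIs of 6 genes), and cells that met several gates were not placed. Types with fewer than 50 cells in a library (*Ccr7*+ dendritic cells, plasmacytoid dendritic cells, B cells, neutrophils and melanoma cells) were left out.

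UMIs were summed per type and library and divided by the type's total. Log2 ratios are creatine over control, for genes with at least 20 UMIs in both libraries together. CPM carry exact Poisson, ratios exact conditional binomial and shares exact Clopper-Pearson 95% intervals. With 1 library per group no test was made. Python 3.11.15 (numpy 2.4.6, scipy 1.17.1, scanpy 1.11.5) and edgeR 4.0.16 in R 4.3.3 (scaling factors only) were used. The ratio code was tested on simulated counts. Doublets were kept, since Scrublet's automatic threshold marked almost none. In an alternative the 6% highest scores were left out.

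The members and the 8 gene lists were chosen with earlier results of these data known. All members were named in every type used, list genes as examples after their values were seen, and the 10 genes most like the family by their correlation. A few measured genes are not reported here. Alternatives were TMM scaling, a total without mitochondrial and ribosomal genes, a stricter cell filter, equal weight per cell, fewer doublets, a stricter gate, no dividing cells, no UMI minimum and shares at 1000 UMIs. Leaving out shared barcodes, and cDC1 without dividing cells at fewer than 50 cells, were added after the data were seen. Shares of all genes at least 1.5-fold changed were computed for the main setting only.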

Additional observations from a re-analysis of the deposited data

Results flagged for a closer look

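*Igtp* and *Gbp4* were below 0 in 1 type and above it in the others. In conventional CD4 T cells *Igtp* had a log2 ratio of -0.18 and *Gbp4* of -0.043, while both were higher in each of the other 9 types, up to 1.80 and 1.81 in cDC1. The difference between types was not tested, the intervals of both lower values held 0, and both turned positive under an alternative, so no opposite direction is shown.

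Cells above the limit of 25% mitochondrial UMIs, which no comparison used, held a family signal as well. The 9 genes summed to 707 CPM (658 to 758) in the 408 such cells of the control library and to 1048 CPM (978 to 1121) in the 274 of the creatine library, a log2 ratio of 0.57 (0.43 to 0.71).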

How the results depend on the processing

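The family median stayed above 0 in all 92 recomputations (all cells and 10 types under 9 alternatives, where the cells allowed them), and 89 of them stayed inside the counting interval of the middle member. Those outside were CD8 T cells without dividing cells (0.81 against 0.53), macrophages with equal weight per cell (1.00 against 1.09) and classical monocytes under the stricter gate (0.56 against 0.75). Without dividing cells the regulatory T cell median was 0.37 and none of its members reached 1.5-fold. That median counted as inside, since the interval of *Gbp5*, the middle member there, ran from 0.24 to 0.98. Such an interval is that of 1 gene and not of the median. It is wide in gates with few UMIs (0.13 to 1.17 in gamma-delta T cells), so staying inside it is a weak check. The count of values at least 1.5-fold higher was 57 and fell to 18 under the stricter gate, where 5 types with 45 values kept 50 cells. In those types it was 16 under the gate used. No value came from the stricter gate for gamma-delta T cells, macrophages, nonclassical monocytes, cDC1 and cDC2, so these rest on a single gate. Of 828 recomputed values of single genes, 781 stayed inside their interval and 15 had the other sign, none of them of a value that had been at least 1.5-fold higher. The widest of these was *Iigp1* in classical monocytes under the stricter gate (-0.51). Among the 511 recomputed values of members that had been at least 1.5-fold higher, 29 fell under 1.5-fold. The alternative without a UMI minimum could change nothing, since all members had passed 20 UMIs. Its 99 values of single genes and its medians repeat the main ones and are counted here as unchanged. Of 20 differences in shares, 8 changed when cells were thinned to 1000 UMIs by more than a fixed limit (with at least 3 members, NK shares became 2.3% and 2.31%). The limit was the mean reach, to either side, of the creatine share's interval at 2000 UMIs. It leaves out the counting error of the control share. Without mitochondrial and ribosomal genes in the total, all genes moved by -0.11 in gamma-delta T cells and by less than 0.1 elsewhere. No paired analysis was possible because each group is 1 library. With 1 library per group, differences between mice, tumors or library preparations and the effect of creatine cannot be told apart.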
